A study of Mus musculus with 12 samples.

Results

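The 10 genes described here encode feedback inhibitors of mitogen-activated protein kinase (MAPK) signalling, namely the dual-specificity phosphatases Dusp1, Dusp4, Dusp5, Dusp6 and Dusp10, the Sprouty genes Spry1, Spry2 and Spry4 and the Spred genes Spred1 and Spred2. They were taken by name from the 54345 genes of the deposited FPKM table (fragments per kilobase, with a scaling between libraries that goes beyond their read totals), and each name matched a single gene. All 10 were among the 25044 genes tested, which had an FPKM above 0 in at least 3 of the 12 libraries. Poly(A) RNA came from H9c2(2-1) cells, labelled as wild-type myoblasts, a subclone of an embryonic heart line that the study describes as rat cardiomyoblasts. Each of the 4 groups held 3 libraries collected after 6 h. Unt cells were untreated, DOX cells received doxorubicin, D_DXZ cells received doxorubicin with dexrazoxane, and D_MgHCF cells received doxorubicin with a magnesium hexacyanoferrate nanocatalyst. Doxorubicin is an anthracycline anticancer drug that damages the heart, and dexrazoxane is a cardioprotective agent given with it. Neither protective agent was sequenced without doxorubicin, and the doses in the sequenced cells are not given in the sources used here.

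The labels give mouse as the organism, and the genes carry mouse Ensembl identifiers with GRCm38 coordinates. The submitters' processing notes name HISAT2 2.0.5 and GRCm38, but the tool that counted reads on genes is not given in the sources used here. The part in the levels of assigning reads of rat cells to mouse genes was not tested. The libraries held between 16626514 and 19365119 reads on genes. The scaling in the FPKM, relative to these totals, ran from 0.642 in DOX replicate 3 to 1.42 in D_MgHCF replicate 2. The D_MgHCF libraries had reads on 23368 to 25456 genes and the other libraries on 18530 to 20660, and the part of this difference in the results was not tested. It is not stated whether the 3 libraries of a group came from separate cultures, so the p-values measure only the spread between these libraries. In bulk RNA, fewer cells that express a gene and less of its RNA per cell cannot be told apart.

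The labelled cell type was checked against marker genes. Of 7 skeletal myoblast markers, 0 reached a mean FPKM of 1 over the 12 libraries. Des was the most abundant of them, with a mean of 0.854, and the defining factors Myod1, Myf5, Myog and Pax7 were at or near 0 in every library, with a highest value of 0.126 for Myod1. Of 7 cardiomyocyte markers, 1 reached that level, the cardiac transcription factor Gata4 (mean FPKM 8.93). Of 7 fibroblast markers, 4 did, led by the intermediate filament gene Vim with a mean of 547. The summed FPKM of the fibroblast list lay between 281 and 335 in the Unt libraries, between 1010 and 1314 in DOX, between 801 and 1026 in D_DXZ and between 124 and 221 in D_MgHCF. Most of this sum was Vim, at 220.0 to 268 in Unt and 870 to 1136 in DOX. The collagen genes of the list were also higher in DOX. In Unt and DOX, Col1a1 was at 19.3 to 21.02 and 65.6 to 79.1, and Col3a1 at 15.5 to 15.8 and 42.8 to 55.2. Col1a2 was at 25.1 to 29.5 and 31.3 to 42.3. Pdgfra differed from these, at 0.592 to 0.828 in Unt and 0.264 to 0.405 in DOX. In D_MgHCF, where the sum was lower than in Unt, Col1a1 was at 18.8 to 32.3. In the same order as the sums, the cardiomyocyte list summed to 9.80 to 11.0, 3.14 to 5.84, 3.04 to 4.29 and 14.9 to 26.4. Most of this sum was Gata4, and Tnnt2, which encodes cardiac troponin T, differed from it, with 0.0969 to 0.190 in Unt and 0.855 to 0.970 in DOX. Of 4 leukocyte markers, 1 reached a mean FPKM of 1, the lysosomal gene Cd68 (2.86), and the list summed to between 0.888 and 4.96 in single libraries. No endothelial marker (0 of 4, Pecam1 highest) and no epithelial marker (0 of 4, Krt8 highest) did, and their lists peaked in D_MgHCF replicate 1, at sums of 1.08 and 1.63. The part of these shifts in the results below was not tested.

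Growth factors and stress activate chains of kinases that end in ERK, JNK or p38, and the activated kinases switch on, among other genes, their own inhibitors. Dual-specificity phosphatases remove the activating phosphates from these kinases, Sprouty proteins act near the receptor and on the route to RAS and RAF, and Spred proteins recruit the RAS inhibitor neurofibromin to the membrane. Many of these inhibitors are immediate or delayed early genes with short-lived messenger RNA, so their RNA level follows recent pathway activity in many cell types. In the heart, ERK signalling is known for its part in growth and survival, and JNK and p38 for stress responses.

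The levels followed a common outline with differences between the members. In DOX the mean FPKM of the Sprouty genes Spry1 and Spry2 and of both Spred genes was 5.91- to 8.80-fold lower than in Unt. With FPKM rescaled to the same sum in each library (TPM), where the median of all genes moved as well, the means were 15.1- to 22.5-fold lower, and with FPKM recomputed over the summed recovered reads of each library they were 11.4- to 16.9-fold lower. Dusp1 was called lower near the threshold (adjusted p = 0.041 in limma), a call lost in 13 of 21 alternative fits. No member was called higher, although Dusp4 was with only the Unt and DOX libraries in the fit (adjusted p = 0.00263) or without D_MgHCF replicate 3 (0.00355). Between D_DXZ and DOX 0 of the 25044 genes tested were called in either direction, and so no member was. In D_MgHCF 9 of the 10 genes were called higher than in DOX, as were 31.4% of all genes tested, and 5 of the 10 were with only these groups in the fit, where 19.6% of all genes were. Against Unt, the phosphatases Dusp1, Dusp5 and Dusp10 were called higher in D_MgHCF, and Spred1 and Spred2 lower. Dusp4, the member not called against DOX, was called higher than in Unt, but not with only these 2 groups in the fit (adjusted p = 0.0581).

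**Figure D1:**
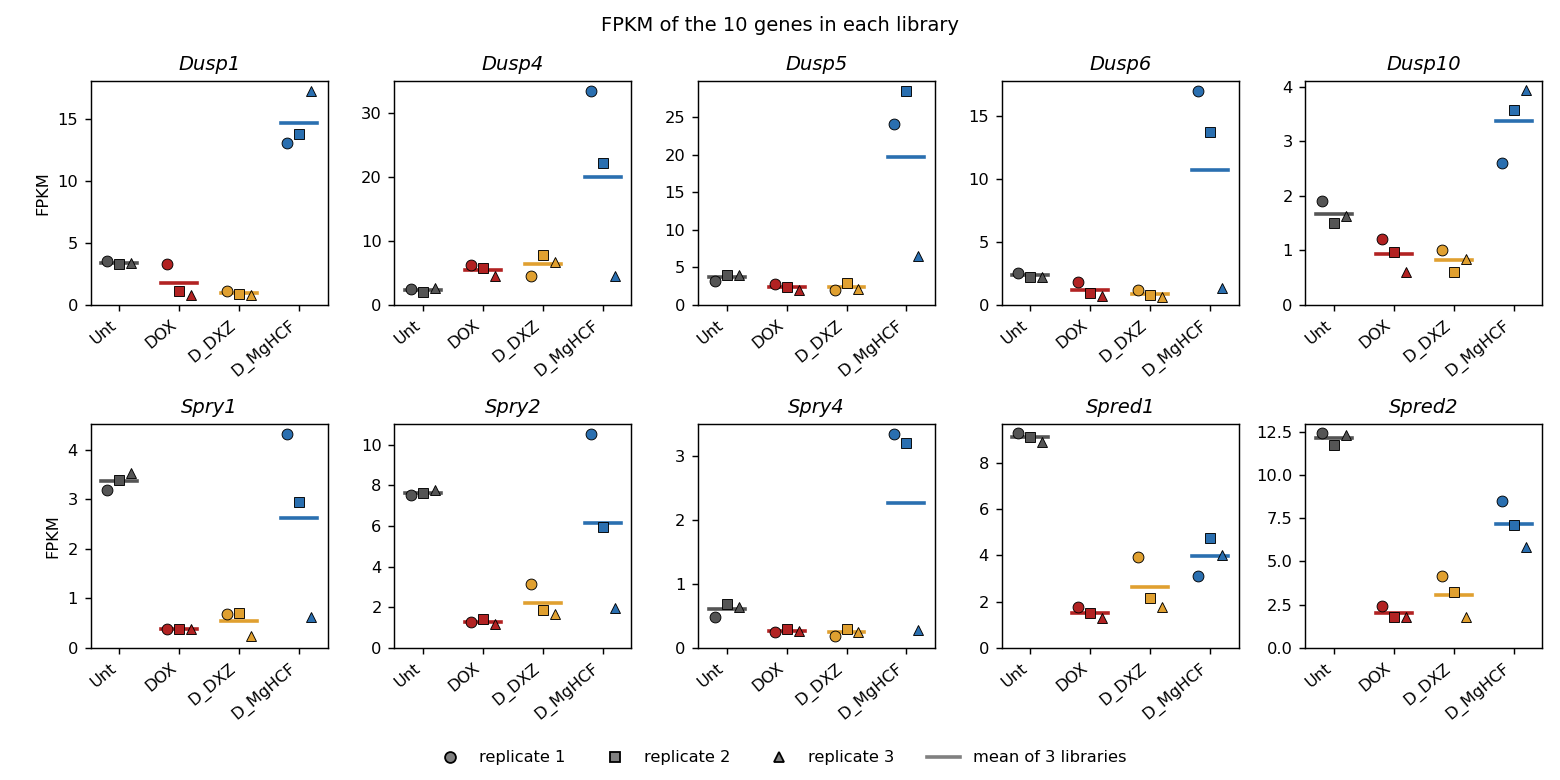
FPKM (vertical axis, linear from 0, with a scale for each gene) of the 10 genes in the 12 libraries, by group. Symbols mark the replicates and horizontal bars the group means. In D_MgHCF, the libraries of Dusp1 lie between 13.1 and 17.3, whereas replicate 3 of Dusp6 and Spry4 lies far below replicates 1 and 2.

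Dusp1 (ENSMUSG00000024190, chromosome 17 from 26505590 to 26508519, minus strand) encodes a nuclear phosphatase that acts on p38, JNK and ERK. The 250 bases before its start site in RefSeq (GRCm38.p6) held a full cyclic AMP response element (CRE), TGACGTCA, from -143 to -136, a further CRE core, TGACG, from -191 and an E-box, CACGTG, from -126. The sequence is shown with that of Dusp5 because these members held more of the motifs searched than the other members searched and differed in which. Capitals mark the matches, and both are mouse reference sequences read 5′ to 3′ on the strand of the gene, for Dusp1 at chr17:26508473-26508722 on the minus strand and for Dusp5 at chr19:53528895-53529144 on the plus strand.

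Dusp1: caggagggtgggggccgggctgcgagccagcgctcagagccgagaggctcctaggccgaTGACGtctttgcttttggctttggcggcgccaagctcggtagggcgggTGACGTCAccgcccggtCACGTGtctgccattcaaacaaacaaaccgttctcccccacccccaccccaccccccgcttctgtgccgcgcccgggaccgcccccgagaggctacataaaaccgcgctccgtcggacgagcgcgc

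Dusp5: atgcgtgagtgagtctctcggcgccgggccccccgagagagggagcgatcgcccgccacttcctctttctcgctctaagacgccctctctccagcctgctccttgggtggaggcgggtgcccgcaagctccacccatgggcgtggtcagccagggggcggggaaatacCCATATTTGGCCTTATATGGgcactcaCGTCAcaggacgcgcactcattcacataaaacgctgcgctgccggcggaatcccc

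In Dusp5 the capitals mark a pair of adjoining CArG boxes, the letters bound by serum response factor, from -82 to -73 and from -72 to -63, and the CRE core CGTCA from -55. Of 32851 promoter windows of this length, 1.55% held the full CRE, 17.8% its core TGACG (which every full CRE contains), 6.02% the E-box CACGTG and 1.47% a CArG box, each searched on both strands. The sequences of 8 of the 10 members were searched. Dusp4 had no entry among the promoters, and Spry4 was left out of the search. Spred2 held 1 CRE core from -51, and Dusp6, Dusp10, Spry1, Spry2 and Spred1 held none of these motifs. The AP-1 motif TGANTCA (6.75% of all windows), the ETS motif CCGGAAG (6.91%) and the TATA box TATAAA (12.4%) were found in 0 of the 8. The GC content of the 8 windows had a median of 62.4%, against 52.4% over all windows. These matches describe letters only.

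The FPKM of Dusp1 was 3.49, 3.33 and 3.34 in the Unt libraries, 3.32, 1.07 and 0.769 in DOX, 1.08, 0.820 and 0.805 in D_DXZ and 13.1, 13.8 and 17.3 in D_MgHCF. All D_MgHCF libraries were above all others, and DOX replicate 1 lay just under the Unt libraries while the other DOX libraries lay at the D_DXZ level. Against DOX, Dusp1 rose in D_MgHCF by 2.64 on the log2 scale (standard error 0.28, adjusted p = 3.21e-05 in limma), from a mean of 1.72 ± 1.40 to 14.7 ± 2.23 (SD, n = 3 each). Fold changes and p-values here and below come from limma on log2(FPKM + 1), which shrinks the changes of low genes, and adjusted p-values are Benjamini-Hochberg values over all 25044 genes. Relative to Unt, Dusp1 was lower in DOX by a log2 fold change of -0.80 (adjusted p = 0.041) and in D_DXZ by -1.21 (adjusted p = 0.00595), and higher in D_MgHCF by 1.83 (adjusted p = 0.00068). The call for DOX was close to the threshold and was lost in 10 of the 12 fits that each left out 1 library. The log2 fold change was -0.80 in the 5 of these that left out a D_DXZ or D_MgHCF library (adjusted p from 0.0516 to 0.058) and between -0.79 and -0.81 in the 3 that left out an Unt library (adjusted p up to 0.101). It was -0.67 without DOX replicate 2 (adjusted p = 0.142), -0.55 without DOX replicate 3 (0.159) and -1.20 without DOX replicate 1, where the call held, as it did without D_MgHCF replicate 3. It was also lost with only the Unt and DOX libraries in the fit (adjusted p = 0.141), with no filter on low genes (0.112) and with quantile normalization (0.344). DOX and D_DXZ were not told apart (log2 fold change -0.40 for D_DXZ, standard error 0.28).

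Dusp4 (ENSMUSG00000031530, chromosome 8 from 34807297 to 34819894) encodes a nuclear phosphatase of ERK and JNK. Its FPKM was 2.47, 2.04 and 2.57 in Unt, 6.13, 5.66 and 4.48 in DOX, 4.50, 7.74 and 6.59 in D_DXZ and 33.4, 22.1 and 4.42 in D_MgHCF. This is the member whose DOX and D_DXZ libraries all lay above Unt, and its D_MgHCF replicate 3 lay just under the lowest DOX library. The differences from Unt were 0.93 on the log2 scale for DOX (standard error 0.53, adjusted p = 0.227 in limma) and 1.09 for D_DXZ (adjusted p = 0.159), neither of which passed the test, and 2.28 for D_MgHCF (adjusted p = 0.00764), which did but had an adjusted p of 0.0581 with only the D_MgHCF and Unt libraries in the fit. With only the Unt and DOX libraries in the fit, where the spread of D_MgHCF does not enter, the adjusted p for DOX was 0.00263, and without D_MgHCF replicate 3 it was 0.00355. The direction in DOX depended on the scaling, since it was -0.15 (adjusted p = 0.90) with FPKM rescaled to the same sum in each library (TPM). D_MgHCF against DOX gave 1.35 (adjusted p = 0.0567). Fits that each left out 1 library gave 0.81 to 2.14 (adjusted p up to 0.21), and the value was 2.14 without D_MgHCF replicate 3 (adjusted p = 3.38e-05).

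Dusp5 (ENSMUSG00000034765, chromosome 19 from 53529109 to 53542431), whose product is a nuclear phosphatase selective for ERK, had an FPKM of 3.12, 3.95 and 3.96 in Unt, 2.69, 2.30 and 1.96 in DOX, 1.98, 2.87 and 2.12 in D_DXZ and 24.1, 28.5 and 6.44 in D_MgHCF. Every D_MgHCF library was above every other library, and replicate 3 was the lowest of them. The rise in D_MgHCF was 2.42 on the log2 scale against DOX (standard error 0.42, adjusted p = 0.000723), 2.42 against D_DXZ (adjusted p = 0.000838) and 1.92 against Unt (adjusted p = 0.00498). These calls held in every fit that left out 1 library. The DOX and D_DXZ libraries all lay under Unt, by a log2 fold change of -0.50 in each (adjusted p = 0.444 and 0.46). Without D_MgHCF replicate 3 these values passed (adjusted p = 0.0146 and 0.0159), as they did with only the groups compared (0.0246 and 0.0394). Their size depended on the scaling. With TPM scaling they were -1.79 and -1.66 and passed (adjusted p = 0.00368 and 0.00625), and DOX passed with FPKM over summed reads (-1.18, 0.0427). Over all alternatives the value for DOX ran from -1.79 to -0.02. An antisense gene, AC137853.2, overlaps 547 bases of Dusp5 exons on the opposite strand, and the sources used here do not state that the strand was kept, in which case reads of these genes cannot be told apart. The same holds for 11 bases shared by Dusp1 and Ergic1, whose highest FPKM was 103.

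Dusp6 (ENSMUSG00000019960, chromosome 10 from 99263231 to 99267489) encodes the cytoplasmic phosphatase of ERK. It was at 2.53, 2.20 and 2.22 FPKM in Unt, 1.77, 0.896 and 0.718 in DOX, 1.13, 0.804 and 0.598 in D_DXZ and 16.9, 13.7 and 1.35 in D_MgHCF. Replicates 1 and 2 of D_MgHCF were above all other libraries, but replicate 3 lay between the DOX libraries and under Unt. Against DOX the log2 fold change of D_MgHCF was 2.04 (standard error 0.61, adjusted p = 0.0182), and against D_DXZ it was 2.22 (adjusted p = 0.0129). The first call was lost without DOX replicate 2 or 3 and without D_MgHCF replicate 1 or 2 (adjusted p up to 0.0735), the second without D_MgHCF replicate 2 (0.0546). With only the groups compared neither passed (adjusted p = 0.0937 and 0.0757), and with no filter the first did not (0.061). DOX and D_DXZ gave -0.67 and -0.86 against Unt, which did not pass (adjusted p = 0.494 and 0.368) but did without D_MgHCF replicate 3 (0.0156 and 0.00467) and with only the groups compared (0.0452 and 0.00487). With TPM scaling they were -1.97 and -2.10 and passed (adjusted p = 0.037 and 0.0284). For D_MgHCF against Unt, the value of 1.36 did not pass (adjusted p = 0.102). It ran from 0.83 to 2.29 over the fits that left out 1 library (adjusted p up to 0.333), with 2.29 (adjusted p = 2.3e-05) without D_MgHCF replicate 3.

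Dusp10 (ENSMUSG00000039384, chromosome 1 from 184013302 to 184075636) encodes a phosphatase of JNK and p38. Its FPKM was 1.89, 1.50 and 1.63 in Unt, 1.21, 0.974 and 0.597 in DOX, 0.998, 0.602 and 0.837 in D_DXZ and 2.60, 3.56 and 3.94 in D_MgHCF. No library of D_MgHCF overlapped the other groups, and the 3 were close to each other. The order was D_MgHCF, Unt, then DOX and D_DXZ, which were not told apart (-0.08, adjusted p = 0.953). D_MgHCF was higher than DOX by 1.18 (standard error 0.18, adjusted p = 0.000282), than D_DXZ by 1.26 (adjusted p = 0.000222) and than Unt by 0.70 (adjusted p = 0.0107). The last of these had an adjusted p of 0.058 with TPM scaling. The difference of D_DXZ from Unt passed (-0.56, adjusted p = 0.0295) and that of DOX did not (-0.48, adjusted p = 0.0527). The former was lost without Unt replicate 1, 2 or 3 and without D_DXZ replicate 2 or 3 (adjusted p up to 0.112). It was also lost with quantile normalization (adjusted p = 0.218) and with the replicate number as a block (0.0555). The value for DOX passed without DOX replicate 1 and without D_MgHCF replicate 1 or 3. The difference of DOX from Unt also passed with a pseudocount of 0.1 (-0.83, adjusted p = 0.0418), with voom on recovered reads (-0.86, 0.0474), with FPKM over summed reads (-0.98, 0.00248), with TPM scaling (-1.71, 0.000674), among genes with an FPKM of at least 1 in 3 libraries (-0.48, 0.0199) and with only the groups compared (-0.48, 0.0497).

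The Sprouty genes encode inhibitors of receptor tyrosine kinase signalling to RAS. Spry1 (ENSMUSG00000037211, chromosome 3 from 37639947 to 37644598) had an FPKM of 3.19, 3.39 and 3.52 in Unt, 0.385, 0.375 and 0.387 in DOX, 0.682, 0.709 and 0.232 in D_DXZ and 4.31, 2.93 and 0.617 in D_MgHCF. The DOX values rest on 13 to 17 reads per library, and D_DXZ replicate 3 on 9. Unt lay above every DOX and D_DXZ library, while the D_MgHCF libraries reached from above Unt down to the D_DXZ level. Spry1 was lower than in Unt by log2 fold changes of -1.66 in DOX (standard error 0.35, adjusted p = 0.00322) and -1.52 in D_DXZ (adjusted p = 0.00661). It rose in D_MgHCF relative to DOX by 1.23 (adjusted p = 0.0148) and relative to D_DXZ by 1.08 (adjusted p = 0.0277). The call against DOX was lost without D_MgHCF replicate 2 (adjusted p = 0.0549), and that against D_DXZ without D_DXZ replicate 3 and without D_MgHCF replicate 1 or 2 (up to 0.0943). Neither passed with only the groups compared (adjusted p = 0.0794 and 0.125), and the second did not with no filter (0.0786) or quantile normalization (0.063). Gm42922 overlaps 710 bases of Spry1 exons on the opposite strand and had an FPKM of at most 0.252.

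Spry2 (ENSMUSG00000022114, chromosome 14 from 105891947 to 105896819, minus strand), whose product binds the adaptor GRB2 and the ubiquitin ligase CBL, had an FPKM of 7.54, 7.60 and 7.75 in Unt, 1.29, 1.42 and 1.16 in DOX, 3.15, 1.86 and 1.65 in D_DXZ and 10.5, 5.93 and 1.95 in D_MgHCF. The D_DXZ libraries lay just above all DOX libraries, and the D_MgHCF libraries were spread from above Unt to within the range of D_DXZ. The log2 fold change in DOX was -1.91 (standard error 0.39, adjusted p = 0.00248), and D_DXZ differed from Unt by -1.45 (adjusted p = 0.0146). The latter call was lost without D_DXZ replicate 2 or 3 (adjusted p up to 0.0566) and with quantile normalization (0.0665). D_MgHCF was higher than DOX by 1.43 (adjusted p = 0.0113, and 0.0664 with only these groups in the fit). Against D_DXZ it gave 0.97 (adjusted p = 0.0636) and passed without D_MgHCF replicate 3. This difference was larger and passed with TPM scaling (2.02, adjusted p = 0.00212) and with FPKM over summed reads (1.55, 0.0082). At 0.97 it passed among genes with an FPKM of at least 1 in 3 libraries (adjusted p = 0.0295) and with the replicate number as a block (0.0477). Against Unt, D_MgHCF gave -0.48 for Spry2 and -0.43 for Spry1, which did not pass (adjusted p = 0.356 and 0.359). With 1 library left out, Spry2 ran from -0.93 to 0.05 and Spry1 from -0.79 to 0.07. The values of 0.05 and 0.07 were those without D_MgHCF replicate 3.

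Spry4 (ENSMUSG00000024427, chromosome 18 from 38586268 to 38601268) was the least abundant member in Unt, at an FPKM of 0.485, 0.691 and 0.633. It was at 0.244, 0.289 and 0.264 in DOX, 0.189, 0.299 and 0.245 in D_DXZ and 3.34, 3.20 and 0.275 in D_MgHCF. Replicate 3 of D_MgHCF, with 31 reads, lay within the DOX range, whereas replicates 1 and 2, with 322 and 374 reads, lay far above every other library. D_MgHCF was higher than DOX by 1.17 (standard error 0.38, adjusted p = 0.0238) and than D_DXZ by 1.20 (adjusted p = 0.0231). The first call was lost without any 1 of the DOX libraries and without D_MgHCF replicate 1 or 2 (adjusted p up to 0.0922), and the second without any 1 of the D_DXZ libraries and without D_MgHCF replicate 1 or 2 (up to 0.0898). Both were also lost with limma voom on recovered reads, where the log2 fold changes were larger, at 2.38 and 2.53 (adjusted p = 0.0632 and 0.0523), with no filter on low genes (0.0752 and 0.0738) and with only the groups compared (0.114 and 0.115), and the first with quantile normalization (0.0535). The differences of DOX and D_DXZ from Unt, -0.34 and -0.36, did not pass (adjusted p = 0.596 and 0.577). They passed without D_MgHCF replicate 3 (0.00651 and 0.00492) and with only the groups compared (0.00673 and 0.0086). D_MgHCF against Unt gave 0.83 (adjusted p = 0.102). With 1 library left out this ran from 0.53 to 1.42 (adjusted p up to 0.318), and it was 1.42 without D_MgHCF replicate 3 (adjusted p = 3.6e-06).

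Spred1 and Spred2 had the highest FPKM of the members in Unt and the smallest adjusted p in DOX. For Spred1 (ENSMUSG00000027351, chromosome 2 from 117121374 to 117182279) the FPKM was 9.29, 9.12 and 8.93 in Unt, 1.75, 1.49 and 1.29 in DOX, 3.94, 2.15 and 1.78 in D_DXZ and 3.12, 4.77 and 4.04 in D_MgHCF. Unt lay above all other groups. Spred1 fell in DOX (log2 fold change -2.01, standard error 0.21, adjusted p = 3.17e-05), a mean level 6.04-fold lower. It rose in D_MgHCF relative to DOX by 0.98 (adjusted p = 0.00255) and was still lower than in Unt by a log2 fold change of -1.04 (adjusted p = 0.00309). These calls held in every fit that left out 1 library. All D_DXZ libraries lay above all DOX libraries, and the difference of 0.49 had an unadjusted p of 0.0386 and an adjusted p of 0.506. D_MgHCF and D_DXZ overlapped (0.49, adjusted p = 0.0711), a difference that passed without D_DXZ replicate 1 or without D_MgHCF replicate 1. It was larger and passed with TPM scaling (1.51, adjusted p = 0.0023), FPKM over summed reads (1.08, 0.00431) and voom on recovered reads (0.65, 0.0486). Among genes with an FPKM of at least 1 in 3 libraries it passed at 0.49 (adjusted p = 0.0418).

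Spred2 (ENSMUSG00000045671, chromosome 11 from 19924375 to 20024026) had an FPKM of 12.4, 11.7 and 12.3 in Unt, 2.41, 1.81 and 1.76 in DOX, 4.13, 3.24 and 1.78 in D_DXZ and 8.51, 7.12 and 5.84 in D_MgHCF. The Unt libraries were above those of D_MgHCF, and these were above those of DOX and D_DXZ, which overlapped. The log2 fold change in DOX was -2.14 (standard error 0.21, adjusted p = 2.53e-05), 6.10-fold in the means. D_MgHCF was higher than DOX by 1.44 (adjusted p = 0.000239) and than D_DXZ by 1.04 (adjusted p = 0.00217). It was lower than Unt by a log2 fold change of -0.70 (adjusted p = 0.0229), a call lost without any 1 of the Unt libraries and without D_MgHCF replicate 2 or 3 (adjusted p up to 0.0653) and with no filter (0.0625). Parts of Spred1 match Vps35 (95.3% over 169 bases) and parts of Spred2 match Gm14612 (96.1% over 179 bases, at 0 in every library), so some reads could have been divided between them.

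**Figure D2:**
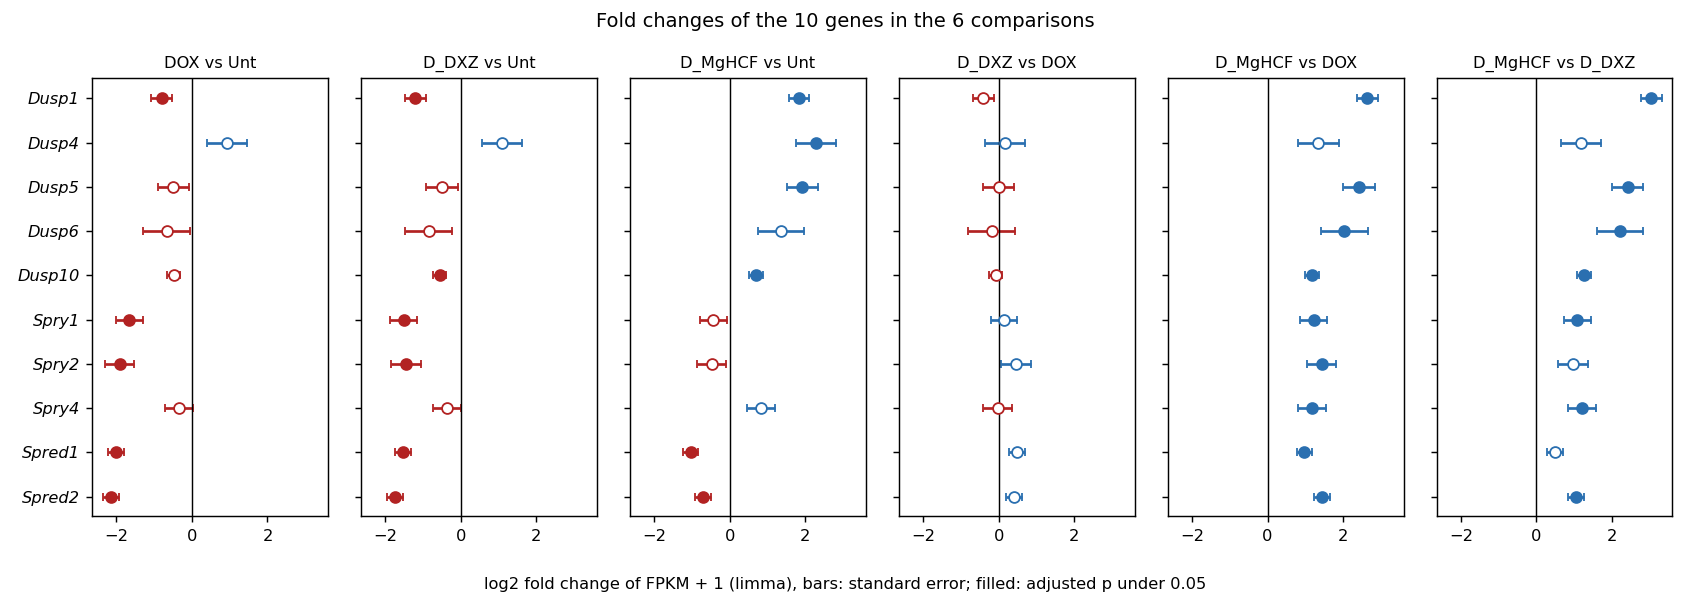
Log2 fold change of FPKM + 1 (horizontal axis) of each gene in the 6 comparisons, with standard errors from limma as bars. Filled points had an adjusted p under 0.05, 5 of them in DOX vs Unt and 9 in D_MgHCF vs DOX, and no point is filled in D_DXZ vs DOX.

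The comparisons were then read over the 10 genes beside all genes tested. In DOX vs Unt, 5 of the 10 members were called lower and 0 higher, where 19.9% of all genes were called lower and 18.6% higher. Many of the genes tested are barely detected. Among the 12434 genes with an FPKM of at least 1 in 3 libraries, 36.0% were lower and 37.1% higher. All members but Spry4 are in that set, where Dusp10 was also called lower (adjusted p = 0.0199 in limma). The median log2 fold change of the members was -0.74, against 0 for all genes tested. All 10 members had DOX libraries that did not overlap the Unt libraries, 9 of them below, as were 26.6% of all genes, and Dusp4 above, as were 25.3%. The number called depended on the fit. With only the Unt and DOX libraries, 8 members were lower (23.0% of all genes) and Dusp4 was higher (21.6% of all genes). In that fit Dusp1 lost its call (adjusted p = 0.141, standard error 0.36), while Dusp5, Dusp6, Dusp10 and Spry4 gained one. Without D_MgHCF replicate 3, 9 were lower (22.8% of all genes) and Dusp4 was higher (20.9%). With TPM scaling 8 were lower, but so were 40.8% of all genes. Over all genes the calls went from 4649 higher and 4973 lower to 1111 and 10227 with that scaling, and the median of the log2 fold changes, over genes that reach an FPKM of 1, moved from 0.02 to -1.18. Relative to that shift, Dusp4 was above the median under either scaling, and Spry1, Spry2, Spred1 and Spred2 were below it.

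In D_DXZ vs Unt, 6 of the 10 members were called lower and 0 higher, where 18.0% of all genes were lower and 15.9% higher. They were Dusp1, Dusp10, Spry1, Spry2, Spred1 and Spred2, and the median of the members was -1.03, against 0 for all genes. This comparison shares the Unt libraries with DOX vs Unt. Among genes with an FPKM of at least 1 in 3 libraries, 34.8% were lower and 32.8% higher. Without D_MgHCF replicate 3, 9 members were lower and Dusp4 was higher, where 21.7% of all genes were lower and 18.5% higher. Between D_DXZ and DOX, 0 members were called in limma in either direction, as were 0% of all genes higher and 0% lower. At an unadjusted p under 0.05, 1143 of all genes were higher and 1245 lower, and among the members only Spred1 was (higher). No other setting called a member at an adjusted p under 0.05, and over all genes limma voom on recovered reads called 0 and the other settings 0 to 6. The log2 fold changes of the members ranged from -0.40 for Dusp1 to 0.49 for Spred1, with standard errors from 0.18 for Dusp10 to 0.61 for Dusp6.

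In D_MgHCF vs DOX, 9 of the 10 members were called higher and 0 lower, where 31.4% of all genes were higher and 20.1% lower. The exception was Dusp4. All 10 log2 fold changes were above 0, with a median of 1.39, against 0.07 for all genes, and the D_MgHCF libraries of 7 members all lay above the DOX libraries, as did those of 32.5% of all genes. With only the D_MgHCF and DOX libraries in the fit, 5 members were called higher (19.6% of all genes), namely Dusp1, Dusp5, Dusp10, Spred1 and Spred2. With TPM scaling all 10 were higher, as were 53.9% of all genes, and the calls over all genes went from 7863 higher and 5027 lower to 13504 and 1691. The median of genes with an FPKM of at least 1 was then 1.02 in place of -0.02. Among the 12434 genes with an FPKM of at least 1 in 3 libraries, 35.9% were higher and 39.2% lower, and the 9 members in that set, all but Spry4, were called higher. The comparisons of D_MgHCF with DOX, D_DXZ and Unt share the D_MgHCF libraries.

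In D_MgHCF vs D_DXZ, 7 of the 10 were higher and 0 lower (29.4% and 19.0% of all genes), and the others were Dusp4, Spry2 and Spred1. The median of the members was 1.19, against 0.06. The count was 4 with only these libraries in the fit (17.3% of all genes) and 4 without D_MgHCF replicate 2 (24.5% of all genes). Among genes with an FPKM of at least 1 in 3 libraries, 32.7% were higher and 37.6% lower in this comparison. In D_MgHCF vs Unt, 4 members were higher and 2 lower, where 24.3% of all genes were higher and 15.7% lower. Those higher were Dusp1, Dusp4, Dusp5 and Dusp10, and those lower were Spred1 and Spred2. Among genes with an FPKM of at least 1 in 3 libraries, 24.6% were higher and 29.9% lower. Without D_MgHCF replicate 3, Dusp6 and Spry4 were also higher, a total of 6 members, and the share of all genes higher was 33.4%. Without Unt replicate 1, 2 or 3, or D_MgHCF replicate 2 or 3, the number lower was 1, Spred1.

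The D_MgHCF libraries differed among themselves more in these genes than in most. The median SD of log2(FPKM + 1) over the 3 D_MgHCF libraries was 0.94 for the 10 members and 0.30 for the 11515 genes with a mean FPKM of at least 1, whereas in Unt it was 0.07 and 0.09, in DOX 0.16 and 0.16 and in D_DXZ 0.24 and 0.17. For 6 of the members replicate 3 stood apart from the other D_MgHCF libraries. The mean of replicates 1 and 2 over the value of replicate 3 was 11.9 for Spry4, 11.3 for Dusp6, 6.28 for Dusp4, 5.87 for Spry1, 4.22 for Spry2 and 4.08 for Dusp5. It was 1.34 for Spred2, 0.976 for Spred1, 0.782 for Dusp10 and 0.779 for Dusp1. The same ratio had a median of 1.05 over 12130 genes with a mean FPKM of at least 1 in D_MgHCF, and it was above 4 in 5.14% of them and in 6 of the 10 members. The members that were low in D_MgHCF replicate 3 were Dusp4, the ERK-selective phosphatases Dusp5 and Dusp6 and all 3 Sprouty genes. This division of the members was seen in the values and was not tested. Outside the members, the ERK phosphatase Dusp7 went the other way, with a ratio of 0.431.

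**Figure D3:**
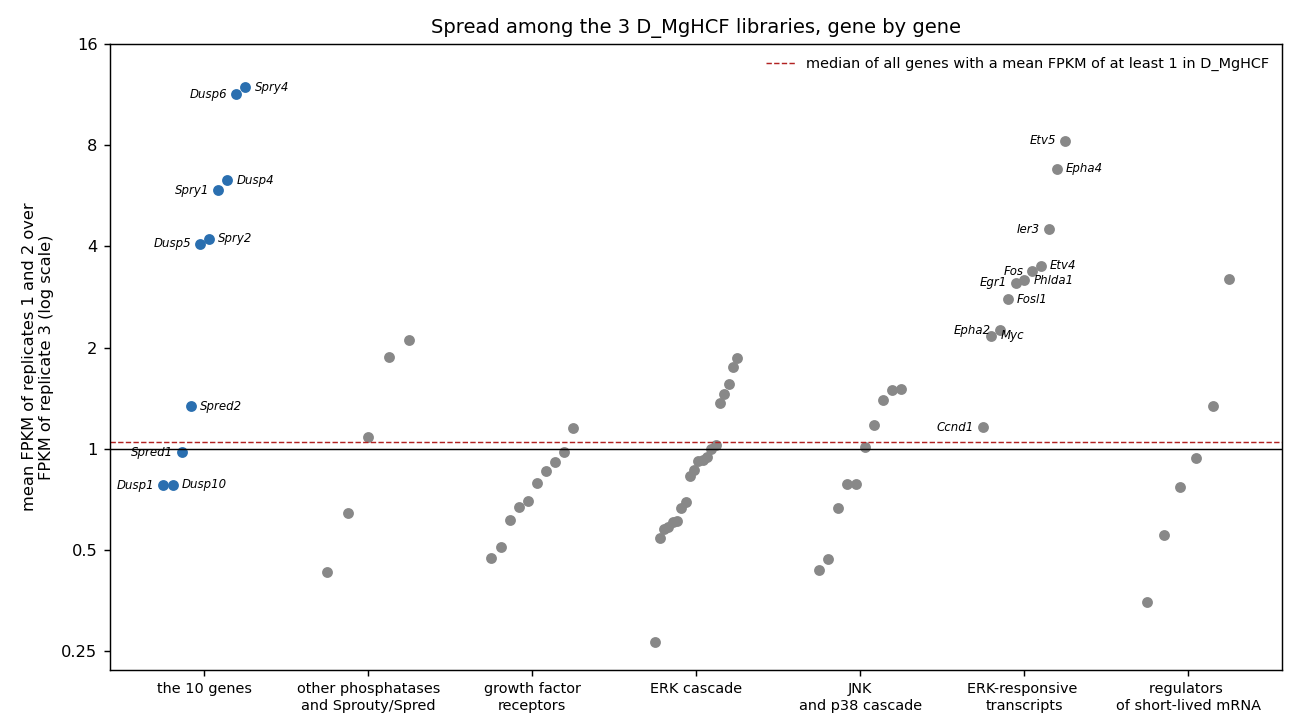
Mean FPKM of D_MgHCF replicates 1 and 2 over the FPKM of replicate 3 (vertical log axis) for the 10 members and for the genes of 6 pathway lists with a mean FPKM of at least 1 in D_MgHCF. The dashed line is the median of all such genes, 1.05, and 6 members and 10 of 11 ERK-responsive transcripts lie above 2.

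Transcripts known to respond to ERK were set beside the members. Of 11 of them, 10 had a ratio of replicates 1 and 2 over replicate 3 above 2 in D_MgHCF, with a median of 3.18, and 14.9% of all genes did. The median was 1.08 for 5 other phosphatase and Spred genes, 0.745 for 10 growth factor receptors, 0.893 for 20 genes of the ERK cascade, 0.898 for 10 of the JNK and p38 cascade and 0.856 for 6 regulators of short-lived messenger RNA. The early gene Ier3 was at 57.2, 53.4 and 12.3 FPKM in D_MgHCF, the transcription factor gene Etv5 at 16.1, 19.2 and 2.13, and the FOS family gene Fosl1 at 53.2, 48.8 and 18.3. All 3 were lowest in replicate 3, and Etv5 was named after its values were seen. Ccnd1, the cyclin D1 gene, was the exception at 24.8, 15.7 and 17.5. In DOX, replicate 1 was the highest library for 7 of the 10 members, the 5 phosphatases and both Spred genes. It was the highest for 8 of the 11 ERK-responsive transcripts and for 33.3% of the 11515 genes with a mean FPKM of at least 1.

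The likeness of the members to each other was described by Pearson correlation of log2(FPKM + 1) over the 12 libraries, which share groups of 3 and therefore the treatment differences. The closest pairs were Spry1 and Spry2 (r = 0.979), Dusp6 and Spry4 (0.975), Dusp1 and Dusp10 (0.971), Dusp5 and Spry4 (0.951), Spred1 and Spred2 (0.945) and Dusp5 and Dusp6 (0.944). Dusp4 had the lowest values, from -0.36 with Spred1 to 0.77 with Spry4. Among 11515 genes with a mean FPKM of at least 1, the pattern of Dusp1 was most like those of AI837181 (0.994) and Cdc42ep4 (0.994), that of Dusp10 like Tmem65 (0.989), Fam221a (0.986) and Tnfrsf21 (0.985), and that of Dusp5 like Cdr2 (0.992), Mgat2 (0.990) and Nmrk1 (0.989). Dusp6 was most like Pif1 (0.985), Sgk1 (0.982) and 2700046G09Rik (0.982), and Spry4 like Sgk1 (0.988), Atf2 (0.986) and Rdh11 (0.982). For Dusp4 the most similar were Gm11274 (0.996), Fbxl12 (0.989) and Gm4285 (0.988). Spry1 was most like Rgs2 (0.981), Spry2 (0.979) and Rnf113a1 (0.978), and Spry2 like Adamts5 (0.994), Trps1 (0.986) and Rgs2 (0.986). Spred1 was most like Pex11a (0.995), Mdfic (0.994) and Ppp1r8 (0.993), and Spred2 like Nr2c2 (0.994), Bag5 (0.993) and Meis1 (0.993).

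The remaining genes of these families and of the pathway were then counted. The shares of all genes to set beside each list are 19.9% lower and 18.6% higher in DOX vs Unt, and 20.1% lower and 31.4% higher in D_MgHCF vs DOX. Among genes with an FPKM of at least 1 in 3 libraries, 36.0% were lower and 37.1% higher in DOX vs Unt. In D_MgHCF vs DOX, 39.2% of that set were lower and 35.9% higher. The latter shares are the closer background for the more abundant genes of the lists. Of 7 other phosphatase, Sprouty and Spred genes (Dusp2, Dusp7, Dusp8, Dusp9, Dusp16, Spry3 and Spred3), DOX vs Unt gave 4 lower and 0 higher, and D_MgHCF vs DOX gave 6 higher and 0 lower. Among the 6, Dusp9 met the filter on low genes only through D_MgHCF, where it was high, so its call was no test. Its FPKM was 0 in every Unt and D_DXZ library, 0.0484, 0 and 0 in DOX and 0.332, 0.274 and 0.689 in D_MgHCF. Spry3, which is in both counts, had an FPKM of at most 0.219 in any library. Dusp7, an ERK phosphatase, was at 9.17, 10.7 and 10.1 FPKM in Unt, 4.20, 2.18 and 1.75 in DOX, 3.77, 2.61 and 2.21 in D_DXZ and 7.32, 13.4 and 24.0 in D_MgHCF. Its D_MgHCF libraries were above all of DOX, and here replicate 3 was the highest. The rise against DOX was 2.01 (standard error 0.36, adjusted p = 0.000972). Dusp16, which acts on JNK and p38, fell in DOX (log2 fold change -1.39) and rose against DOX in D_MgHCF by 1.44 (adjusted p = 8.48e-05), from a mean FPKM of 0.916 to 4.16. Dusp2 rose from 0.131 in D_DXZ to 3.20 in D_MgHCF (log2 fold change 1.85, adjusted p = 3.64e-05), and Dusp8 from 1.90 to 7.87 (1.59, adjusted p = 5.79e-05).

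Upstream of the members, 5 of 12 growth factor receptor genes were lower and 1 higher in DOX vs Unt, and 6 were higher and 1 lower in D_MgHCF vs DOX. Erbb2, the receptor partner shared by the ErbB family, fell in DOX from a mean of 12.3 ± 1.11 to 4.34 ± 0.664 FPKM (log2 fold change -1.32, adjusted p = 0.0016). In DOX the insulin receptor gene Insr fell (log2 fold change -1.27, adjusted p = 0.00021). Erbb3, the neuregulin receptor, was higher in D_MgHCF than in D_DXZ, at 8.34 ± 0.693 against 0.603 ± 0.0223 (SD, n = 3 each; log2 fold change 2.54, adjusted p = 1.52e-05). Met, the hepatocyte growth factor receptor gene, was lower in D_MgHCF than in DOX by a log2 fold change of -1.60 (adjusted p = 1.42e-05).

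The 20 genes of the ERK cascade, which holds the adaptors, RAS proteins and kinases, were mixed, with 6 higher and 9 lower in DOX vs Unt and 8 higher and 6 lower in D_MgHCF vs DOX. Mapk3, which encodes ERK1, was at 68.0, 68.0 and 72.8 FPKM in Unt, 239, 319 and 317 in DOX, 200, 270 and 265 in D_DXZ and 91.1, 56.1 and 41.9 in D_MgHCF. DOX and D_DXZ were above the other groups in every library, and the log2 fold change of D_MgHCF against DOX was -2.25 (adjusted p = 4.18e-05). Nras fell likewise (log2 fold change -1.91, adjusted p = 3.12e-05). Sos1, which encodes a nucleotide exchange factor for RAS, fell in DOX (log2 fold change -1.97, adjusted p = 0.000135). The 14 genes of the JNK and p38 cascade gave 3 higher and 5 lower in DOX vs Unt and 4 and 4 in D_MgHCF vs DOX, where the number higher lay near the share over all genes. Mapk14, the main p38 gene, rose in D_MgHCF against DOX by 1.82 (adjusted p = 1.07e-05), and so did the JNK kinase gene Map2k4, by 1.79 (adjusted p = 2.36e-05). The JNK gene Mapk8 was lower in D_MgHCF than in D_DXZ by a log2 fold change of -1.54 (adjusted p = 1.92e-05), and Map2k7, another JNK kinase gene, was lower in D_MgHCF than in Unt by -1.90 (adjusted p = 9.95e-05). The name Map2k7 matched 2 entries, of which only the first was used.

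**Figure D4:**
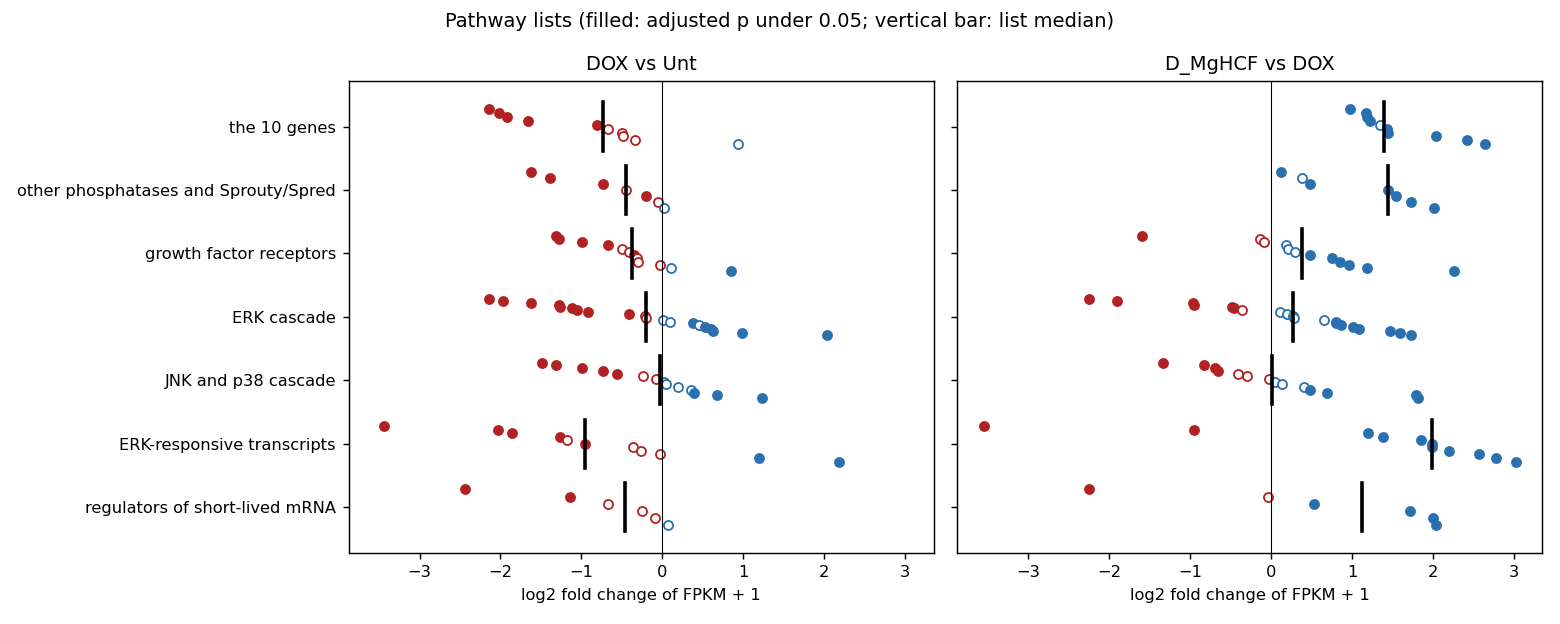
Log2 fold change of FPKM + 1 (horizontal axis) of the members and of the genes of the 6 pathway lists in DOX vs Unt and D_MgHCF vs DOX. Filled points had an adjusted p under 0.05, and black bars mark the medians, which for the members are -0.74 and 1.39.

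Of the 11 ERK-responsive transcripts, 5 were lower and 2 higher in DOX vs Unt (median log2 fold change -0.95), and 9 were higher and 2 lower in D_MgHCF vs DOX (median 1.99). The transcription factor gene Myc fell in DOX from 68.7 ± 5.16 to 5.55 ± 1.74 FPKM (log2 fold change -3.44, adjusted p = 2.7e-05). Ier3 rose in D_MgHCF against DOX by 3.02 (adjusted p = 0.000338), and Fosl1 against D_DXZ by 2.93 (adjusted p = 0.000137). Ccnd1 fell in D_MgHCF against DOX (log2 fold change -3.55, adjusted p = 2.39e-06), from 235 ± 36.1 to 19.3 ± 4.85 FPKM, and Etv4 (log2 fold change -0.95, adjusted p = 0.0317) was the other gene of the list that was lower there. Between D_DXZ and DOX, 0 of these 11 and 0 of the genes of the other 5 lists were called in limma, as were 0% of all genes.

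Many early transcripts carry ATTTA elements in their 3′ untranslated regions, which proteins such as ZFP36 bind to shorten the life of the messenger RNA. In GENCODE M21, the 10 members had a median of 1.94 ATTTA per kilobase of 3′ untranslated region, against 1.21 over 14840 genes tested, and 8 of the 10 were above that median. Dusp1 had 5.80 per kilobase, a density that 4.57% of the genes reach, while Dusp5 and Dusp6 had 0.902 and 0.841. Of 6 genes for regulators of such messenger RNA, DOX vs Unt gave 2 lower and 0 higher, and D_MgHCF vs DOX gave 4 higher and 1 lower. Zfp36 rose against DOX from 1.58 ± 0.438 to 9.59 ± 1.85 FPKM (log2 fold change 2.04, adjusted p = 1.05e-05), and Zfp36l1 by 1.72 (adjusted p = 0.00163). Its relative Zfp36l2 fell in DOX (log2 fold change -2.44, adjusted p = 0.000135), and Hnrnpd, an ATTTA-binding protein gene of another family, was lower in D_MgHCF than in Unt by a log2 fold change of -2.35 (adjusted p = 0.000149). The part of these regulators in the levels of the members was not tested.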

How the data were processed

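RNA-seq of 12 libraries (4 groups of 3) was analysed from the FPKM values deposited by the authors. The submitters' processing notes name HISAT2 2.0.5 and GRCm38, and the counting tool is not given in the sources used here. The low FPKM were whole multiples of 1 read in every library (tolerance 0.05 reads), which gave the reads per gene and the depths. The FPKM carry a scaling between libraries beyond their read totals, which followed the median-ratio factors of these reads. The study's negative binomial test needs counts and was not run on FPKM. Here log2(FPKM + 1) of the 25044 genes above 0 in at least 3 libraries was fitted with limma 3.58.1 (trend, R 4.3.3) over the 4 groups, and calls required a Benjamini-Hochberg adjusted p under 0.05. The fitting steps were tested on simulated data. The members and lists were chosen with earlier results of these data known. The genes named were all members, up to 4 genes per pathway list (largest absolute log2 fold change among called genes with a mean FPKM of at least 1 in some group) and the 3 genes most correlated with each member. Some genes that this rule names are not reported here. Etv4 and Etv5 were named after their values were seen. Promoters came from RefSeq (GRCm38.p6), exons and 3′ untranslated regions from GENCODE M21, which shares 53620 of the 54345 gene identifiers, and similar copies from BLAST 2.17.0 (at least 95% identity over 150 bases). The alternatives were another pseudocount (0.1), other filters, scalings and tests, only the groups compared, a replicate block, and each library left out.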

Additional observations from a re-analysis of the deposited data

How the results depend on the processing

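Of 1254 refitted values of the 10 genes, 1137 kept their direction where called and their side of the threshold, 65 were no longer called, 52 became called and 0 called values changed sign. The number of members called moved by over 1.5 times as follows. Parentheses give the percentage of all genes called the same way. With only the libraries of the groups compared, it was 1 higher (21.6%) and 8 lower (23.0%) in DOX vs Unt, 1 higher (19.4%) in D_DXZ vs Unt, 5 higher (19.6%) in D_MgHCF vs DOX and 4 higher (17.3%) in D_MgHCF vs D_DXZ. TPM scaling gave 8 lower in DOX vs Unt (40.8%), an unadjusted p gave 1 higher in D_DXZ vs DOX (4.56%), and no filter gave 1 lower in D_MgHCF vs Unt (5.94%). Leaving out each library in turn gave 0 to 1 higher (16.4 to 20.9%) and 4 to 9 lower (17.2 to 22.8%) in DOX vs Unt, 0 to 1 higher (13.6 to 18.5%) and 4 to 9 lower (14.5 to 21.7%) in D_DXZ vs Unt, 4 to 6 higher (16.3 to 33.4%) and 1 to 2 lower (12.6 to 18.7%) in D_MgHCF vs Unt, 6 to 10 higher (24.3 to 37.99%) in D_MgHCF vs DOX, 4 to 9 higher (23.0 to 36.2%) in D_MgHCF vs D_DXZ and 0 in D_DXZ vs DOX (0 to 0.0120% higher and 0 to 0.0240% lower). Fits of DOX or D_DXZ with Unt alone, and fits without D_MgHCF replicate 3, leave the spread of that library out by construction. Fits of D_MgHCF with 1 other group keep it, and the standard error of Dusp6 in D_MgHCF vs DOX went from 0.61 to 0.79 there. The cause of the other changes was not tested.

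Whether equal replicate numbers pair the libraries is not stated in the sources used here. Over 18 same-numbered pairs the correlation of deviations from the group means ran from -0.39 to 0.39 and was above 0.1 in 2. Pairs with different numbers were not set beside these, so the correlations cannot decide it. With the replicate number as a block, 5 members were lower in DOX vs Unt, 5 in D_DXZ vs Unt and 2 in D_MgHCF vs Unt, and 9, 8 and 4 were higher in D_MgHCF vs DOX, D_DXZ and Unt. Of 60 values, 58 kept their side of the threshold. Dusp10 in D_DXZ vs Unt lost its call (-0.56, adjusted p = 0.0555 in limma), and Spry2 in D_MgHCF vs D_DXZ gained one (0.97, adjusted p = 0.0477 in limma). Depth limits Spry4 and Spry1 most, with 14 to 18 and 9 to 32 reads per library in DOX and D_DXZ.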
